A study of Homo sapiens with 6 samples.

Results

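The genes described here encode the chemokine and interleukin ligands. They were taken by symbol from the array annotation: CCL or CXCL followed by a number, or IL followed by a number and at most one letter from A to F. The rule used names and no measured value, but it was chosen with earlier results of these data known. It found 100 of 54613 probe sets (the groups of short probes that together report one transcript), covering 70 of 19775 genes. Of these, 26 probe sets of 20 genes were CC chemokines, 23 of 14 genes were CXC chemokines and 51 of 36 genes were interleukins. Another 4 probe sets carried a ligand symbol beside other symbols and were left out.

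The samples were 6 arrays of total RNA from Caco-2, an established line from a human colorectal carcinoma whose cells take on enterocyte features. Cells on 3 arrays had received a small interfering RNA against SDC1 (SDC1 siRNA) and cells on the other 3 arrays a negative control siRNA (control siRNA). SDC1 encodes syndecan-1, a cell surface proteoglycan of epithelia that carries heparan sulfate. As a model it is a line of one tumour, and the sources used here do not give the siRNA sequences or how much syndecan-1 protein remained. Replicates are described as independent, with no word on separate cultures, so each p-value rests on a spread between arrays that may be technical.

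Chemokines are small secreted proteins that steer leukocytes through G protein-coupled receptors, and interleukins are secreted signals between immune and epithelial cells. Many of them bind heparan sulfate, which holds chemokines on cell surfaces and in matrix and so shapes their gradients. In injured mouse lung, shed syndecan-1 carries the CXC chemokine KC and directs neutrophils. Gut epithelium makes several of these ligands itself, among them CXCL8, CCL20, CCL25, CCL28, IL15 and IL18.

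Each value is a log2 signal from which the median of that probe set over the 6 arrays has been taken away. Arrays can be compared within a probe set, but levels cannot be compared between genes. Differences are SDC1 siRNA minus control siRNA. Both SDC1 probe sets lay lower in every SDC1 siRNA array. For 201287_s_at the values were -0.51, -0.62 and -0.34 with SDC1 siRNA, against 0.38, 0.34 and 0.36 with control siRNA. The 2 probe sets differed by -0.83 ± 0.09 and -0.85 ± 0.09 (standard error), each with a limma adjusted p = 0.121 over all probe sets. With probe sets averaged into genes the SDC1 difference was -0.84 and passed (limma adjusted p = 0.0246 with 0.0253% of 19775 genes past 0.05). Only a rough brightness could be read, from the rounding steps of the stored numbers. By that reading 5 ligand probe sets lay at a log2 signal of 8 to 16, 34 at 4 to 8 and 61 below 4. Of 15 probe sets for gut epithelium markers, 10 lay at 4 or higher. So did 7 of 22 for leukocyte markers and 16 of 22 for fibroblast and endothelium markers. Over all probe sets 34704 of 54613 did, so the brightness class does not mark a cell type here. Precision is limited by having 3 arrays per group.

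No ligand passed the test. In limma's fit over all 54613 probe sets, 0 of 100 ligand probe sets had an adjusted p under 0.05, and 0 of 54613 did (0%). The lowest adjusted p among the ligands was 0.403, for CCL2, and the lowest of all was 0.0502. At an unadjusted p under 0.05 there were 9 ligand probe sets higher with SDC1 siRNA, where 4.18% of all probe sets were, and 1 lower, where 4.15% were (10 of 100 in either direction, against 8.33%). With limma array weights the adjusted count stayed at 0 ligands, against 0.00549% of all probe sets. The direction of each of these differences is therefore given as a value and not as a change. The median half-width of the 95% interval was 0.24 over the ligands. An observed log2 difference of that size would only just reach an unadjusted limma p of 0.05 in a typical ligand probe set. Passing the adjusted p takes a larger one, and CCL2 at 0.46 did not pass.

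All 3 SDC1 siRNA arrays lay above all 3 control siRNA arrays in 13 ligand probe sets of 12 genes, 13% of the ligands, against 7.06% of all probe sets. They lay below in 5 ligand probe sets of 5 genes, 5%, against 7.42% of all. The exact two-sided permutation test gave p = 0.1 for each of these 18, the smallest that 3 arrays against 3 allow. Since every probe set has a median of 0, the nearest arrays of the 2 groups then stand at equal distances on either side of 0. That gap was under 0.05 on the log2 scale in 11 of the 18, and it was widest in CCL2 (0.22) and IL6 (0.19).

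**Figure D1:**
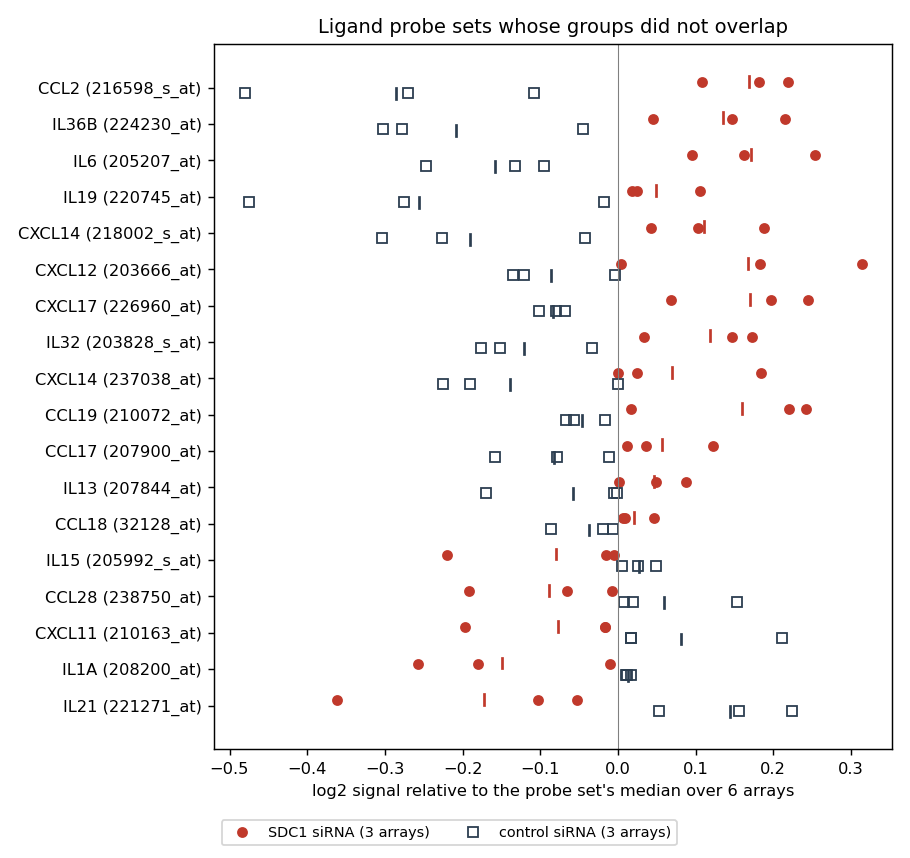
Log2 signal relative to the probe set's median over 6 arrays (horizontal axis) for the 18 ligand probe sets whose groups did not overlap; points are single arrays and short bars are group means (n = 3 each). CCL2 and IL6 have the widest gap between the groups, while in CXCL12, IL13 and the CXCL14 probe set 237038_at the nearest arrays almost touch.

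CCL2, the attractant of monocytes through the receptor CCR2, had the largest difference among the ligands. Its 1 probe set (216598_s_at) had values of 0.11, 0.22 and 0.18 in SDC1 siRNA arrays, against -0.27, -0.11 and -0.48 in control siRNA arrays. The SDC1 siRNA arrays were all higher, and the control siRNA arrays spread more widely among themselves. The means were 0.17 ± 0.06 with SDC1 siRNA and -0.29 ± 0.19 with control siRNA (SD, n = 3 each). The difference was 0.46 ± 0.11 (log2, standard error), a 1.37-fold higher signal, and the 95% interval ran from 0.21 to 0.70 (limma adjusted p = 0.403). It was 0.36 without control siRNA replicate 3, the lowest array, and 0.54 without control siRNA replicate 2.

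IL6, a cytokine of the acute phase response that signals through STAT3, was measured by 1 probe set (205207_at). The SDC1 siRNA arrays were at 0.10, 0.25 and 0.16 and the control siRNA arrays at -0.13, -0.10 and -0.25. The groups did not overlap, and their spreads were alike, at 0.17 ± 0.08 with SDC1 siRNA and -0.16 ± 0.08 with control siRNA (SD, n = 3 each). The difference was 0.33 ± 0.09, or 1.26-fold, and the 95% interval ran from 0.13 to 0.53 (limma adjusted p = 0.438). When single arrays were left out it lay between 0.285 and 0.367.

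The IL6 promoter holds a match to the NF-kB motif, the binding sequence of a transcription factor that drives many of these ligands. RefSeq promoter sequences (GRCh38.p14) were at hand for 52 of the 70 ligand genes. CCL2 was not among the 52, so its promoter was not searched. In the 250 bases before the start, GGGA and TTCC with any 2 bases between them, on either strand, were found in 10 of the 52 (19.2%), against 1.4% of 35116 promoters. The 10 were IL6, IL32, CCL1, CXCL1, CXCL2, CXCL3, CXCL5, CXCL6, CXCL10 and CXCL11. The AP-1 motif TGANTCA was found in 11 of the 52 (21.2%), against 6.57% of all. Both shares are a description. Ligands were counted with 1 promoter per gene, while the 35116 were all promoter entries and were not reduced to 1 per gene. CXCL1, CXCL2, CXCL3, CXCL5 and CXCL6 are neighbours on chromosome 4, so their NF-kB matches may not be independent. The stretches around the NF-kB match are shown for 9 of the 10 genes. They set IL6, whose groups did not overlap, beside neutrophil chemokines that share the motif and whose groups overlapped. CCL1, whose groups also overlapped, is not shown. Capitals mark the match, or a pair of overlapping matches on opposite strands.
IL6, chr7:22727102-22727161 (plus strand): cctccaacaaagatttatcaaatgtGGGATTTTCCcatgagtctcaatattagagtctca
IL32, chr16:3065279-3065338 (plus strand): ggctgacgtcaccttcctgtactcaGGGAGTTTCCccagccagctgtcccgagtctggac
CXCL11, chr4:76036112-76036171 (minus strand): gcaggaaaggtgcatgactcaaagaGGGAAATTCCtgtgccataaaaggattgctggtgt
CXCL10, chr4:76023640-76023699 (minus strand): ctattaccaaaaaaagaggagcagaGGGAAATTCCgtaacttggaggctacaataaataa
CXCL1, chr4:73869289-73869349 (plus strand): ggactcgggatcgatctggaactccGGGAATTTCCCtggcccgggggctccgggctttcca
CXCL2, chr4:74099238-74099298 (minus strand): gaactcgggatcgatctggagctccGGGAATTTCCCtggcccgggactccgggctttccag
CXCL3, chr4:74038733-74038793 (minus strand): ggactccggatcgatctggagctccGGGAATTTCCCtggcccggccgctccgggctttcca
CXCL5, chr4:73998733-73998793 (minus strand): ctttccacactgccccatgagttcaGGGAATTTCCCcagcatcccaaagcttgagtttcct
CXCL6, chr4:73836563-73836623 (plus strand): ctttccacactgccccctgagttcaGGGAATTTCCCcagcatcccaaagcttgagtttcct
The 5 neutrophil chemokines CXCL1, CXCL2, CXCL3, CXCL5 and CXCL6 carry one and the same run of 11 bases, GGGAATTTCCC, beginning 78 to 91 bases before the start. IL6 carries its match 73 bases before the start and IL32 99 bases before. The median over genes was -0.019 for the 10 with a match and 0.037 for the 42 without one. Only this 1 form of the motif and only the 250 bases before the start were searched. A gene without a match may therefore hold a site of another form or farther away. A probe set with separate groups was seen in 3 of the 10 (IL6 and IL32 higher, CXCL11 lower) and in 10 of the 42. Over all probe sets 14.5% had separate groups. A gene was counted here if any of its probe sets did, so the counts over genes cannot be set directly against that share. A match describes letters only and shows no binding.

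The neutrophil chemokines with a CXCL symbol had overlapping groups. These ligands have an ELR motif (glutamate, leucine, arginine) before the first cysteines and act through CXCR1 and CXCR2. PPBP, an ELR chemokine outside the symbol rule, is given with the other secreted genes. In 11 probe sets of 6 CXCL genes 0 had groups that did not overlap, against 14.5% of all probe sets, so few would be looked for among 11. Of the differences 9 were below 0 and 2 above (18.2%, against 50.2% of all probe sets), and the median was -0.039. For CXCL8, the main neutrophil attractant of human epithelium, the 4 to 8 probe set (202859_x_at) had values of -0.08, 0.11 and 0.08 with SDC1 siRNA and -0.22, -0.09 and 0.18 with control siRNA. Control siRNA replicate 3 was above every SDC1 siRNA array, and the difference was 0.083 ± 0.12 with a 95% interval from -0.18 to 0.35. The dimmer CXCL8 probe set (211506_s_at) was at -0.085 ± 0.088. CXCL1 was at 0.024, 0.040 and -0.12 with SDC1 siRNA and 0.00, 0.00 and -0.024 with control siRNA. Its difference was -0.012 with a 95% interval from -0.20 to 0.18, so a difference as large as that of CCL2 lies outside it.

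CXCL6 had the lowest difference of this family, -0.17 ± 0.10, with control siRNA replicate 2 level with the SDC1 siRNA arrays. CXCL3 was at -0.12 ± 0.10. The 3 CXCL2 probe sets were at -0.11, -0.026 and -0.0031, and the 3 CXCL5 probe sets at -0.17, -0.039 and 0.066. Transcripts of CXCL1, CXCL2 and CXCL3 are close to each other in sequence, so their probe sets may share signal.

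CXCL9, CXCL10 and CXCL11, which interferon induces and which bind CXCR3 on T cells, had differences on both sides of 0. CXCL10 was at 0.17 ± 0.09, with 0.11, -0.003 and 0.17 in SDC1 siRNA arrays and 0.003, -0.08 and -0.16 in control siRNA arrays. CXCL9 was at -0.046 ± 0.13. The CXCL11 probe set 210163_at was lower in every SDC1 siRNA array, at -0.017, -0.017 and -0.20, against 0.017, 0.017 and 0.21 with control siRNA. Its difference was -0.16 ± 0.10 (adjusted p = 0.706), and most of it came from 1 array of each group. The other CXCL11 probe set was at 0.036.

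The remaining CXC chemokines included 3 genes with higher values in every SDC1 siRNA array. Of their 8 probe sets 4 had groups that did not overlap, all higher (50%, against 7.06% of all probe sets), and the median was 0.19. Over all 23 CXC probe sets 4 were separate on the higher side (17.4%, against 7.06% of all probe sets) and 1 on the lower (4.35%, against 7.42%). CXCL14, a chemokine made by resting epithelia, was read by 3 probe sets that disagreed. The probe set 218002_s_at, at a brightness of 4 to 8, had 0.04, 0.10 and 0.19 with SDC1 siRNA, against -0.04, -0.23 and -0.30 with control siRNA. Its difference was 0.30 ± 0.10, with a 95% interval from 0.083 to 0.52 (adjusted p = 0.485). The dim 237038_at was at 0.21 ± 0.10, with a gap of only 0.0008 between the groups. The third, 222484_s_at, was at -0.067 ± 0.12 with overlapping groups and control siRNA replicate 3 at 0.32. Averaged into 1 gene value, CXCL14 differed by 0.12 over its brighter probe sets and 0.15 over all 3.

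CXCL17, a mucosal chemokine, was at 0.24, 0.07 and 0.20 with SDC1 siRNA, against -0.10, -0.08 and -0.07 with control siRNA. Every SDC1 siRNA array was higher, and the control siRNA arrays lay within 0.02 (SD, n = 3) of their mean of -0.08. The difference was 0.25 ± 0.08 (adjusted p = 0.495). CXCL12, the ligand of CXCR4 and of the scavenging receptor ACKR3, had probe sets at 0.25 ± 0.10 (203666_at) and 0.165 ± 0.098 (209687_at). In 203666_at the arrays were at 0.004, 0.18 and 0.31 with SDC1 siRNA and -0.13, -0.12 and -0.004 with control siRNA. SDC1 siRNA replicate 1 and control siRNA replicate 3 were nearly equal there, and without SDC1 siRNA replicate 3 the difference was 0.18. CXCL16, the membrane-bound ligand of CXCR6, was at 0.087 ± 0.091, and CXCL13 at -0.089 ± 0.089.

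**Figure D2:**
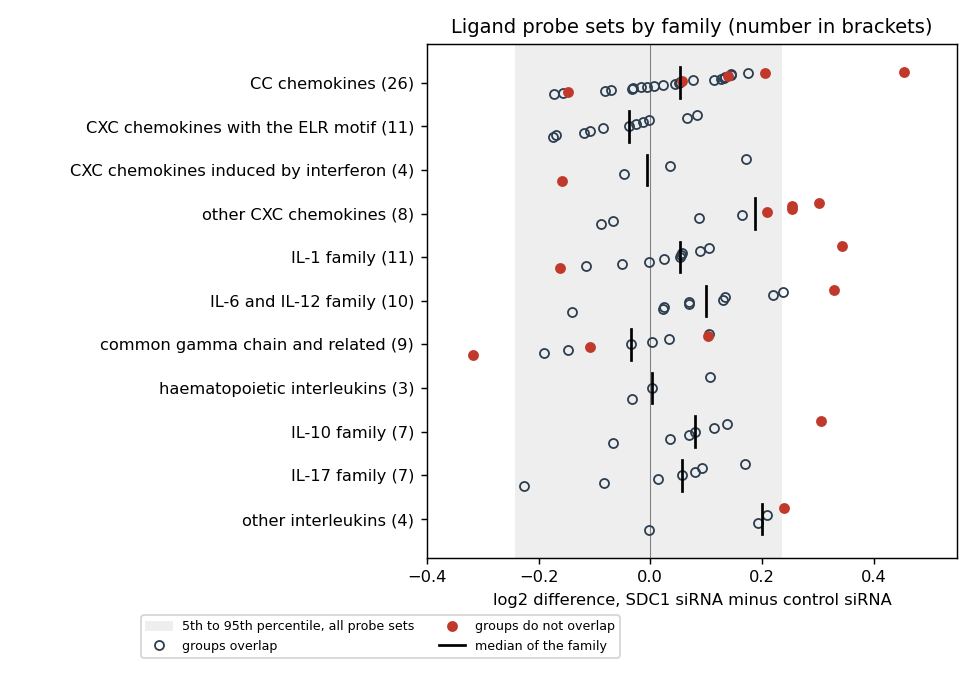
Log2 difference, SDC1 siRNA minus control siRNA (horizontal axis), of the 100 ligand probe sets by family, with filled points where the groups did not overlap and bars for the family medians. The grey band spans the 5th to the 95th percentile of all probe sets (-0.24 to 0.23); 9 ligand probe sets lie above it and 1 below.

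Among the CC chemokines CCL2 stood alone in size. Of 26 differences 17 were positive (65.4%, against 50.2% of all probe sets) and 9 negative, and the median was 0.053. Separate groups were seen in 4 probe sets on the higher side (15.4%, against 7.06% of all probe sets) and 1 on the lower (3.85%, against 7.42%). Besides CCL2 the higher ones were CCL19 (0.21 ± 0.09), the CCR7 ligand of lymphoid tissue, the CCR4 ligand CCL17 (0.14 ± 0.08) and 1 of 2 CCL18 probe sets (0.058 ± 0.077). Those 3 were named after their values were seen. CCL5, a T cell attractant and a common target of NF-kB and interferon, had 3 probe sets at -0.16, -0.070 and -0.017. CCL20, which gut epithelium uses to attract dendritic cells through CCR6, was at -0.0065 ± 0.082. Its SDC1 siRNA arrays were at 0.08, 0.004 and -0.05 and its control siRNA arrays at -0.004, 0.08 and -0.03, so the groups covered the same range. CCL25, the small intestinal ligand of CCR9, was at 0.052 ± 0.088.

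CCL28, the mucosal ligand of CCR10 that draws IgA plasma cells, gave differences of both signs. The probe set 238750_at was lower in every SDC1 siRNA array, at -0.007, -0.19 and -0.07, against 0.007, 0.15 and 0.02 with control siRNA, a difference of -0.15 ± 0.09 (adjusted p = 0.705). The other 2 were at 0.022 and 0.13. All 3 lay at a brightness of 4 to 8, and their mean gave 0.0027 for the gene.

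The neighbours of CCL2 had smaller differences, of both signs. CCL2 lies on chromosome 17 in a row with CCL7, CCL11, CCL8 and CCL1. These 4 neighbours, attractants of monocytes, eosinophils and T cells, were at -0.030, -0.17, -0.081 and 0.14, each with an interval that held 0. In the row of IL10, IL19, IL20 and IL24 on chromosome 1 the differences were 0.080, 0.31, 0.11 and 0.14, all above 0. In the row on chromosome 2 that runs from IL1A to IL36B they ranged from -0.16 to 0.34, and the 6 ELR chemokine genes on chromosome 4 ranged from -0.17 to 0.083. The difference between neighbours was not tested.

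**Figure D3:**
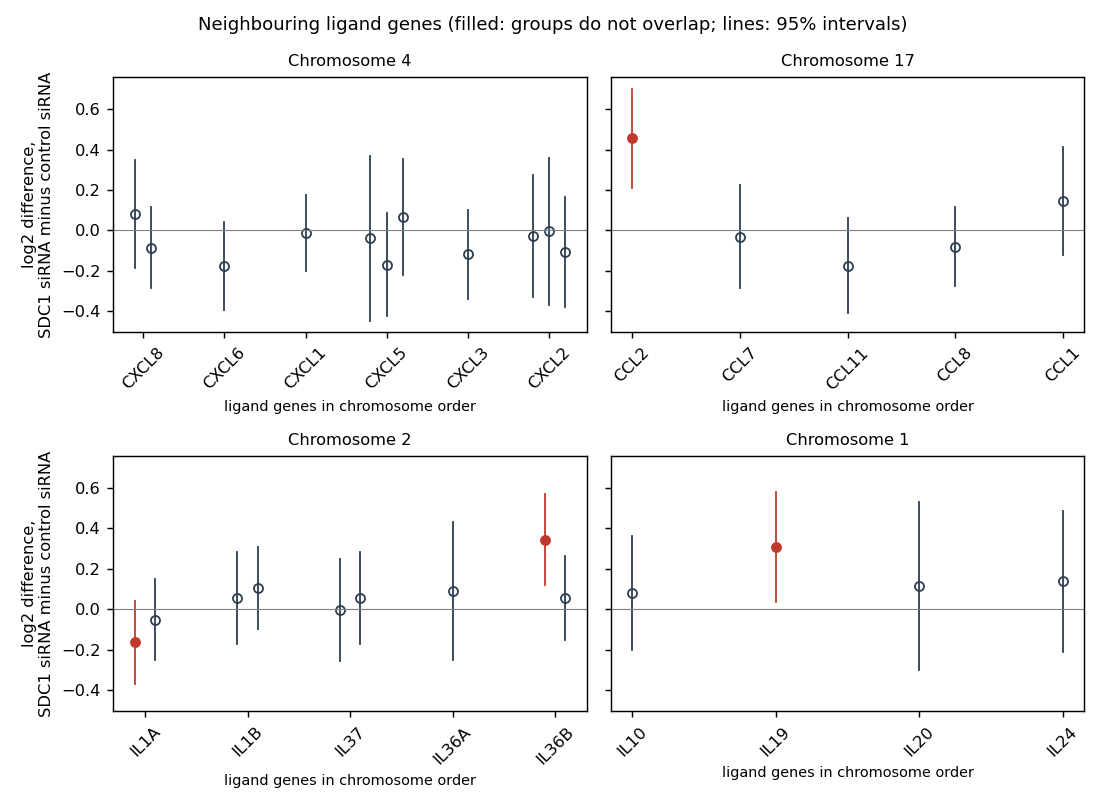
Log2 difference, SDC1 siRNA minus control siRNA (vertical axis), of each probe set with its 95% interval, for 4 rows of neighbouring ligand genes in chromosome order; filled red points mark groups that did not overlap. CCL2 at 0.46 stands above its 4 neighbours, whose intervals all include 0. Every point drawn for the row of ELR chemokines with a CXCL symbol has an interval that includes 0, and PPBP is not drawn.

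Among the interleukins 36 of 51 differences were above 0 (70.6%, against 50.2% of all probe sets) and 15 below, and the median was 0.056. Separate groups were seen in 5 on the higher side (9.8%, against 7.06% of all probe sets) and 3 on the lower (5.88%, against 7.42%), shares near those of all probe sets. The IL-1 family, alarmins and inflammatory cytokines made by epithelia and myeloid cells, had 11 probe sets with a median of 0.054. IL36B, which encodes IL-36 beta, was read by a dim probe set (224230_at) at 0.15, 0.21 and 0.05 with SDC1 siRNA, against -0.30, -0.28 and -0.05 with control siRNA. The SDC1 siRNA arrays were all higher, with a difference of 0.34 ± 0.10 (95% interval from 0.12 to 0.57, adjusted p = 0.454). The second IL36B probe set was at 0.054 ± 0.091 with overlapping groups. IL1A, an alarmin released by damaged epithelium, had -0.18, -0.01 and -0.26 with SDC1 siRNA, against 0.01, 0.01 and 0.02 with control siRNA in 208200_at. Its difference was -0.16 ± 0.09 (adjusted p = 0.68), and its other probe set was at -0.051. IL1B was at 0.055 and 0.11 in its 2 probe sets. IL18, which gut epithelium stores as a precursor, was at -0.12 ± 0.11, and -0.0033 without control siRNA replicate 2. The alarmin IL33 was at 0.025 ± 0.10.

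The IL-6 and IL-12 families had 10 probe sets of 6 genes, 9 of them above 0 (90%, against 50.2% of all probe sets), with a median of 0.10. Only IL6 had separate groups, on the higher side (10%, against 7.06% of all). IL11, a relative of IL6 that signals through the same gp130 chain, was at 0.22 ± 0.11 in one probe set and -0.14 ± 0.10 in the other. In the IL-10 family, IL19, which signals through the IL-20 receptors, had 0.02, 0.11 and 0.02 with SDC1 siRNA, against -0.28, -0.47 and -0.02 with control siRNA. The groups did not overlap, but control siRNA replicate 3 stood close to the SDC1 siRNA arrays, and the difference of 0.31 ± 0.12 became 0.20 without control siRNA replicate 2. Its 1 probe set lay below a brightness of 4 (adjusted p = 0.558).

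The interleukins of the common gamma chain, which act mainly on lymphocytes, and the related IL13 had 9 probe sets with a median of -0.034. Of these 5 were below 0 and 44.4% above, against 50.2% of all probe sets above 0. IL21, a cytokine of helper T cells, had the lowest difference of all ligands, -0.32 ± 0.11 (95% interval from -0.56 to -0.078, adjusted p = 0.499), from 1 dim probe set. Its arrays were at -0.05, -0.10 and -0.36 with SDC1 siRNA and 0.16, 0.22 and 0.05 with control siRNA. The lowest array was SDC1 siRNA replicate 3, and without it the difference was -0.22. IL15, which gut epithelium presents to intraepithelial lymphocytes, was at -0.11 ± 0.09 in a bright probe set (205992_s_at) and -0.19 ± 0.15 in a dim one. The bright one was lower in every SDC1 siRNA array, at -0.015, -0.22 and -0.0056, against 0.048, 0.026 and 0.0056 with control siRNA, with SDC1 siRNA replicate 2 apart from the rest. Without that array its difference was -0.037. IL7, another epithelial cytokine for lymphocytes, was at 0.11 ± 0.09. IL13 (0.10 ± 0.09, named after its values were seen) had a gap of 0.0020 between the groups.

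IL32, a cytokine first found in lymphocytes and also made by epithelia, was higher in every SDC1 siRNA array. Its values were 0.15, 0.03 and 0.17 with SDC1 siRNA, against -0.03, -0.15 and -0.18 with control siRNA. The difference was 0.24 ± 0.09 (95% interval from 0.043 to 0.43, adjusted p = 0.528). IL34, a ligand of the CSF1 receptor, was at 0.11 ± 0.12. In the IL-17 family 5 of 7 probe sets were above 0 (71.4%, against 50.2% of all probe sets), with a range from -0.23 to 0.17. Separate groups were seen in 0 of the 7, against 14.5% of all. For the 10 interleukin genes known to bind heparin (13 probe sets, CXCL8 counted among them) the median was 0.022. Separate groups were seen in 1, IL6, on the higher side (7.69%, against 7.06% of all probe sets). Differences were below 0 in 4 and above 0 in 69.2%, against 50.2% of all.

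Over all ligands 63 of 100 differences were above 0, where 50.2% of all probe sets were. The median was 0.053, against 0.0005 over all probe sets. The median over the ligands in single arrays was -0.0064, 0.036 and 0.024 with SDC1 siRNA and -0.0067, -0.030 and -0.0043 with control siRNA. These medians overlapped, and without SDC1 siRNA replicate 2 the median difference was 0.025. In the 39 ligand probe sets at a brightness of 4 or higher the median difference was 0.10, against -0.0083 in all such probe sets. Of these 39, 8 had separate groups on the higher side (20.5%, against 7.17% of all brighter probe sets) and 3 on the lower (7.69%, against 9.37%). In the 61 dimmer ones the counts were 5 higher (8.2%, against 6.87%) and 2 lower (3.28%, against 4.02%). These shares are a description, since some probe sets share a gene. At a log2 difference of at least 0.3 there were 5 higher and 1 lower, where 4.64% of all probe sets were past that size in either direction.

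**Figure D4:**
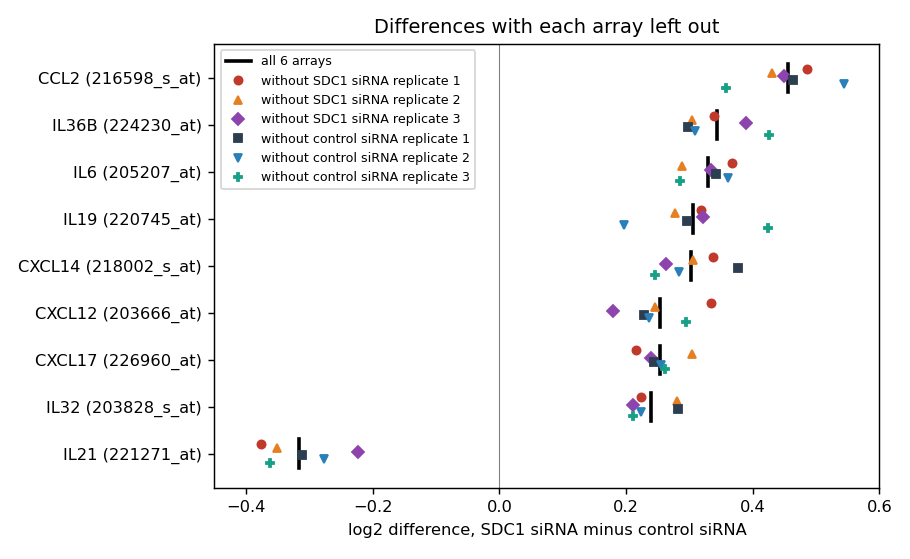
Log2 difference, SDC1 siRNA minus control siRNA (horizontal axis), with all 6 arrays (black bars) and with each array left out (symbols), for the 9 named ligand probe sets whose 95% interval did not include 0. Since the groups of all 9 are separate, leaving out an array cannot turn a sign. IL19 spreads most, from 0.20 without control siRNA replicate 2 to 0.42 without control siRNA replicate 3.

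More than 1 probe set was available for 22 of the 70 ligand genes, and in 13 of the 22 the probe sets differed in sign. The spread between probe sets of 1 gene was largest for CXCL14 (0.37), IL11 (0.36) and IL36B (0.29), about the size of the largest differences between the groups. CCL2, IL6, IL19, IL21, CXCL17 and IL32 each rested on 1 probe set, without such a check.

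The receptors of these ligands were read from lists chosen with earlier results of these data known. For chemokine receptors 0 of 34 probe sets passed an adjusted p of 0.05, 0 had separate groups on the higher side (against 7.06% of all probe sets) and 2 on the lower (5.88%, against 7.42%). ACKR3, the scavenging receptor of CXCL12, was at -0.13, -0.22 and -0.30 with SDC1 siRNA, against 0.13, 0.23 and 0.22 with control siRNA in 212977_at. That is a difference of -0.41 ± 0.08 (adjusted p = 0.359), while its 2 dim probe sets were at -0.048 and 0.0053. CCR7, the receptor of CCL19, was at -0.48 ± 0.18 with overlapping groups. For interleukin receptors 0 of 98 probe sets passed, 12 had separate groups on the higher side (12.2%, against 7.06% of all) and 6 on the lower (6.12%, against 7.42%). IL2RB, a chain of the IL15 receptor, was at 0.53 ± 0.10 (adjusted p = 0.315) and IL22RA1, by which gut epithelium senses IL-22, at 0.44 ± 0.10 (adjusted p = 0.401).

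Signalling genes behind the ligands did not pass either. For NF-kB signalling and its feedback 0 of 60 probe sets passed, with 3 separate on the higher side (5%, against 7.06% of all) and 4 on the lower (6.67%, against 7.42%) and a median of -0.020. The endotoxin receptor TLR4 had 4 dim probe sets, at 0.38, 0.34, 0.018 and -0.099, and the peptidoglycan sensor NOD2 was at -0.30 ± 0.10. For JAK-STAT signalling 0 of 50 passed, with 7 separate on the higher side (14%, against 7.06% of all) and 5 on the lower (10%, against 7.42%). STAT3, the transcription factor that IL6 activates, was at 0.42 ± 0.10, 0.30 ± 0.10 and 0.27 ± 0.11 in its 3 brighter probe sets, each with separate groups, and at -0.17 in the dim one (lowest adjusted p = 0.403). STAT5B had 4 of 5 probe sets between 0.071 and 0.34 and the fifth at 0.036. Among 16 probe sets of secreted antagonists and other chemokines 2 had separate groups, both higher (12.5%, against 7.06% of all): the platelet chemokine PPBP, an ELR ligand of CXCR2, at 0.43 ± 0.14, a dim probe set, and 1 of 5 IL1RN probe sets, the IL-1 receptor antagonist, at 0.24 ± 0.11.

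Markers of other cell types were read beside these values. Of 22 leukocyte marker probe sets for 7 of 9 listed genes, 1 had separate groups, the ITGAM probe set 205786_s_at (0.35 ± 0.09), on the higher side (4.55%, against 7.06% of all), and the median difference was 0.017. Their median per array ran from -0.018 to 0.037 with SDC1 siRNA and from -0.088 to 0.019 with control siRNA. Of 22 fibroblast and endothelium probe sets 3 were separate on the higher side (13.6%, against 7.06% of all) and 2 on the lower (9.09%, against 7.42%), with a median of 0.032. Levels near 0 cannot be recognised in centred values, and the part of other cells in the ligand values was not tested. Fewer cells making a ligand and less RNA per cell cannot be told apart in these samples.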

How the data were processed

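Per the labels' protocols, biotin-labelled cRNA from 6 samples was hybridized to Affymetrix arrays, 3 per group by title. Per the submitters' processing notes, RMA produced the deposited log2 values. In 54675 of 54675 probe sets the median over 6 arrays was 0 (tolerance 1e-06), a centring no source describes, which removes levels. Rounding steps double at 4 and at 8 and gave a brightness class; chance places about 3.1% a class too high.

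Without 62 controls, 54613 probe sets were tested with limma 3.58.1 in R 4.3.3 (lmFit, eBayes, group only; Benjamini-Hochberg over all, threshold 0.05), after tests on simulated data. Errors of differences are moderated standard errors. The platform annotation gave 1 symbol to 41091, several to 1801 and none to 11721. The members and lists were chosen with earlier results of these data known. Named were up to 8 genes per direction by lowest p with separate groups, ligands of gut epithelium by name (CCL15 had no probe set of its own) and up to 2 genes per list by lowest p; CXCL9, CXCL13 and chromosomal neighbours complete a family or row. The alternatives tried were leaving out each array, a replicate block, renormalization, array weights, a robust fit, brighter probe sets, probe set types, gene averages and an adjusted p of 0.01. Labels and files name no batch. At most 190 values were equal between any 2 arrays.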

Additional observations from a re-analysis of the deposited data

How the results depend on the processing

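The count of ligand probe sets past the adjusted p was 0 in each alternative run, the stricter adjusted p of 0.01 included, while all features tested held 3 past it with array weights (0.00549%), 2 among brighter probe sets, 2 without _x_at and _s_at probe sets, 5 as genes by the brightest class (0.0253%) and 3 as genes by the mean of all probe sets. SDC1 was past it in both gene averages (adjusted p = 0.0246 and 0.0239, difference -0.84). Same-numbered arrays deviated together with correlations of 0.065, -0.19 and 0.063, so the numbers were not taken as pairs. With the replicate block 0 ligands passed, 9 had an unadjusted p under 0.05 against 10 without it, and the lowest adjusted p was 0.596. The block cannot move the separate groups or the differences. With 1 array left out, the ligands with separate groups numbered 18 to 22 higher and 7 to 13 lower, as fewer arrays separate more easily, against 10.3% to 13.9% and 10.4% to 13.6% of all probe sets. The median difference was 0.025 to 0.066. Among the 39 brighter probe sets the counts were 8 and 3 and the median 0.10. Over 70 genes, separate groups numbered 9 higher and 3 lower by the brightest class (8.21% and 8.45% of all genes), and 10 and 1 by the mean of all probe sets (8.27% and 8.29%). Named ligands gave 617 alternative values with the direction and call of the fit over all arrays and 34 with a changed sign, all in probe sets whose 95% interval included 0. Much of this was fixed in advance. The replicate block, the robust fit and the choices of brighter probe sets or probe set types leave each difference as it was. Where groups are separate, leaving out an array cannot turn a sign. The tally is therefore no measure of how firm a difference is. Of the ligand probe sets 61 lay below a brightness of 4, and a dim probe set can hide a difference.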
